A study of Mus musculus with 38 samples.

Results

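Conventional dendritic cells and monocyte-derived cells that both carried MHC class II were compared in untreated mouse ear dermis: 3 arrays of dermal CD11b+ DC against 3 arrays of dermal P3, which are 6 of the 38 arrays of the series. The members are all arrays whose titles name these 2 populations at steady state. P3 was sorted as live CD11b+ cells, negative for CD24, positive for CD64, CCR2 and MHCII, and Ly6Clow, and its label gives the cell type as monocyte. The DC were live CD11b+ MHCII+ cells negative for CD24, Ly6C and CD64. All mice were wild-type C57BL/6 females aged 6 weeks, and none of these 6 arrays had inflammation. Each array holds one of 3 independent pools of mice. Ear skin was digested with dispase and collagenase 4, and 5000 to 10000 sorted cells gave 5 to 20 ng of RNA, which was amplified before hybridisation to Affymetrix Gene 1.0 ST arrays. A bulk array cannot tell fewer cells of a type from less RNA per cell.

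Conventional DC arise from bone marrow precursors that depend on the growth factor receptor FLT3, and in skin they carry antigen to the draining lymph node under the guidance of CCR7. Monocytes that enter the dermis can also gain MHC class II and come to resemble DC, while keeping receptors that are typical of macrophages, such as the Fc receptor CD64 and the apoptotic cell receptor MERTK. Since CD11b, CD11c and MHC class II are found on both kinds of cell, CD64 is widely used to part them. CD64 was part of the gates here, so the RNA of its gene is a check of the labels and not a finding.

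Levels are log2 values on the array's scale, and a difference of 1 is 2-fold. Differences are DC minus P3, with the standard error (SE) of limma's fit over all 13 groups. A gene is called higher or lower at an adjusted p under 0.05 (limma, Benjamini-Hochberg over 19937 genes). A level under 4.02, the 40th percentile of all values, is taken as low signal, where a fold has no exact size. The 6 arrays had similar medians (4.43 to 4.49), and replicates of one population correlated at 0.959 to 0.968 over all probe sets. The 2 populations were nearly as alike as replicates, and P3 replicate 1 correlated at 0.96 with DC replicate 1, against 0.959 with each of the other P3 replicates. P3 replicate 3 stood apart among the called genes: it was the highest of the 3 P3 arrays for 51.7% of the genes called higher in DC and for 52.6% of those called lower, against 28.9% of all genes.

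The labels were checked first. Fcgr1, the gene of CD64, stood at 8.74, 8.75 and 8.62 in P3 and at 5.64, 5.98 and 6.20 in DC. Flt3 stood at 5.81, 5.67 and 6.45 in P3 and at 8.66, 9.0 and 8.54 in DC. No array overlapped between the groups for either gene. Of 5 genes that define DC, 3 were higher in DC (Flt3, Ccr7 and Dpp4), while Zbtb46, a transcription factor of conventional DC, differed by 0.54 (SE 0.18, limma adjusted p = 0.14) and Kit by -0.22 (SE 0.23, adjusted p = 0.928). Of 4 measured genes that define macrophages, 3 were lower (Fcgr1, Mertk and C1qa), and Adgre1, the gene of F4/80, differed by -0.48 (SE 0.26, adjusted p = 0.585). C1qa was not absent from DC: its level was 8.45 (SD 0.53, n = 3), against 5.03 (SD 0.11, n = 3) in blood monocytes. Itgam, the gene of CD11b and so of a marker in both gates, differed by -0.33 (95% interval -0.78 to 0.12), and Ccr2, whose protein was used in the P3 gate alone, by -0.34 (-0.91 to 0.22).

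RNA of other skin cells was present in both populations. The mean of 14 keratinocyte markers lay between 6.60 and 7.91 in P3 and between 6.33 and 6.95 in DC, against 4.29 to 4.46 in blood monocytes, and 12 of the 14 had the lower mean in DC. The mean of 12 fibroblast markers lay at 6.34 to 6.89 in P3 and 6.01 to 6.39 in DC (4.78 to 4.84 in blood). The part of this RNA in the results was not tested, beyond a fit with both list means as covariates, which called 446 genes, 317 of them among those called without covariates. Sfn, a keratinocyte gene, was the one called of these 26 markers (-1.72, SE 0.44, adjusted p = 0.0333), and its call ended without P3 replicate 3 or DC replicate 2 or 3, with the covariates, with quantile normalization, with the mean of probe sets and with the 6 arrays fitted alone. Markers of T cells, B cells, NK cells, plasmacytoid DC, mast cells and Langerhans cells or cDC1 gave no call, among 7, 8, 9, 9, 10 and 12 measured. The mast cell gene Cpa3 stood at 7.40 in P3 replicate 3 and between 3.31 and 4.55 in the other 5 arrays. Of 11 neutrophil markers 1, Csf3r, was lower in DC, and of 12 endothelial markers 2 were higher, Flt1 and Pecam1.

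In all, 358 of 19937 genes were called (1.8%), 149 higher in DC (0.747%) and 209 lower (1.05%). The median difference of all genes was 0.01. The called genes that were higher had a median difference of 1.29, and 109 of the 149 differed at least 2-fold, 21 of them at least 4-fold. The lower ones had a median of -1.42, with 164 of 209 at least 2-fold and 52 at least 4-fold lower. The levels of the 3 and 3 arrays did not overlap for 144 of the 149 and for 207 of the 209, against 7.01% of all genes tested in each direction (14% in both). With the 6 arrays fitted alone, which leaves 4 residual degrees of freedom, 101 genes were called (32 higher and 69 lower), 90 of them among the 358, and with the replicate number as a block in that small fit 0 were called. Without P3 replicate 3 there were 175 higher and 140 lower genes, so the share of higher calls was 55.6% in place of 41.6%, and without P3 replicate 1 it was 32.6%.

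**Figure D1:**
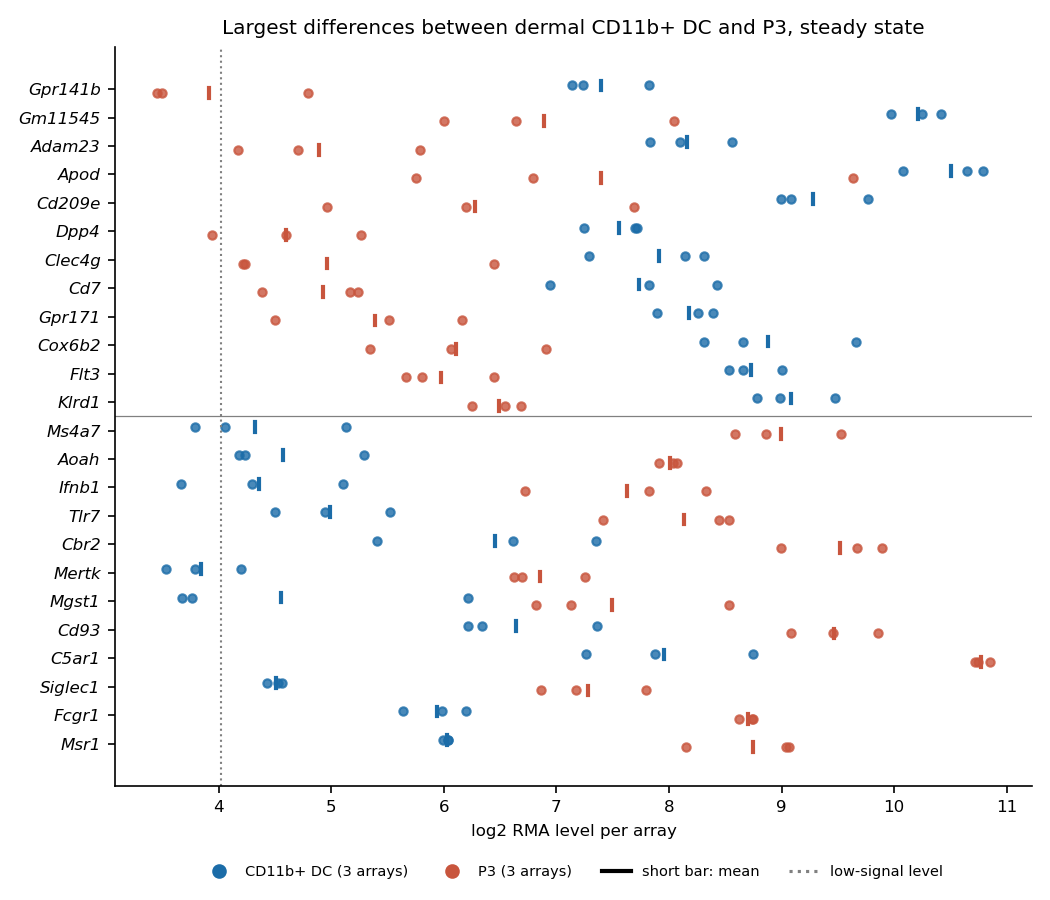
Log2 level (horizontal axis) of the 12 genes with the largest difference in each direction among called genes whose arrays do not overlap, for 3 DC arrays (blue points) and 3 P3 arrays (red points), with the group mean as a short bar and the low-signal level as a dotted line. For each gene all DC points lie on one side of all P3 points; the gap is narrow for Apod and Mgst1, where a replicate lies far from the other two.

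Part of the conventional DC programme was higher in DC. Of 25 measured conventional DC core genes, 7 were higher and 0 lower, 20 had the higher mean in DC, and the list's median difference was 0.67. Adam23, an ADAM family gene whose product acts in cell adhesion, stood at 4.17, 4.71 and 5.79 in P3 and at 8.10, 8.56 and 7.83 in DC (difference 3.27, SE 0.32). Dpp4, which encodes the surface peptidase CD26, stood at 3.94, 5.27 and 4.59 in P3 and at 7.25, 7.70 and 7.71 in DC. Every DC array lay above every P3 array for both genes. Ccr7, the receptor that guides DC to lymph nodes, was present in both populations, at 7.85, 7.87 and 8.48 in P3 and at 9.86, 10.53 and 9.87 in DC. Jaml, a junctional adhesion molecule of leukocytes, differed by 1.89 (SE 0.28), with all P3 arrays between 5.26 and 5.48. The other 2 called members were Kmo, which hydroxylates kynurenine in tryptophan breakdown (2.09, SE 0.39), and the G protein-coupled receptor gene P2ry10 (2.17, SE 0.38). Kynu, the next enzyme of that pathway and not a member of the list, was also higher (4.70, 4.76 and 4.37 in P3 and 6.34, 6.39 and 5.76 in DC), and was chosen after its values were seen.

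Other DC lists moved less. No gene of 17 CD11b+ DC genes was called in either direction by limma in the fit of all arrays, where 1.8% of all genes were. Their median difference was -0.16. The smallest adjusted p-values were 0.0514 for Ccl17, described further on, and 0.0578 for Cd209a, a C-type lectin gene, at 9.44, 10.01 and 10.27 in P3 and 10.94, 11.02 and 10.97 in DC. Among 16 transcription factors of DC fate, Bcl11a (1.41, SE 0.28) and the corepressor gene Cbfa2t3 (0.92, SE 0.25) were higher. Irf8, a factor of DC and monocyte development, was lower in DC, at 5.84, 6.44 and 5.99 against 7.36, 7.54 and 7.23 in P3. Irf4, which shapes CD11b+ DC and was chosen after its values were seen, gave a difference of 0.24 (95% interval -0.35 to 0.82). The calls of Bcl11a, Cbfa2t3 and Irf8 ended with the 6 arrays fitted alone, that of Bcl11a also without DC replicate 1, and that of Cbfa2t3 without P3 replicate 2 or 3 or DC replicate 1 or 2, with centred arrays, with other probe set rules, with an intensity trend and with the covariates.

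Of the machinery of antigen presentation little was called, and the class II chains differed by small amounts. MHC class II protein was required by both gates, so the levels of its chains are in part a check of the labels. H2-Aa, H2-Eb1 and Cd74, which encode the class II chains and their chaperone, differed by 0.04 (95% interval -0.24 to 0.32), 0.01 (-0.25 to 0.28) and 0.04 (-0.18 to 0.25). H2-Ab1 stood at 11.87, 11.98 and 11.86 in P3 and at 12.08, 12.05 and 11.93 in DC. Of 10 MHC class II genes only H2-Ob was called: it encodes a chain of the peptide-loading regulator H2-O and stood at 6.05, 6.23 and 5.22 in P3 and 7.44, 6.82 and 7.71 in DC. Ciita, the master activator of class II genes, differed by 0.65 (0.10 to 1.21, adjusted p = 0.342). Costimulatory genes gave Cd80 0.92 (0.35 to 1.49, adjusted p = 0.0935), with no overlap of the arrays, Cd86 0.09 (-0.45 to 0.62), Cd40 -0.19 (-0.67 to 0.29) and the maturation gene Cd83 0.01 (-0.51 to 0.53). Of 23 genes of DC maturation and migration, 1 was called, the chemokine gene Ccl22, whose product attracts CCR4+ T cells (8.13, 6.94 and 8.13 in P3, and 10.04, 10.24 and 9.76 in DC). The calls of H2-Ob and Ccl22 ended with the 6 arrays fitted alone. Values of the uncalled genes in this paragraph, H2-Ab1 apart, were chosen after they were seen.

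Some lectin receptors of the NK gene complex were higher in DC. Of 12 measured, 4 were higher and 0 lower, and the list median was 0.17. Klrd1, which encodes CD94, stood at 6.25, 6.69 and 6.54 in P3 and at 8.78, 9.48 and 8.99 in DC. Klra17, a Ly49 family gene, stood at 3.14, 2.93 and 3.15 in P3, which is low signal, and at 5.48, 5.25 and 5.39 in DC. Both groups were tight, and the difference of 2.30 (SE 0.25, adjusted p = 9.44e-07) is of uncertain size for that reason. Klrb1b and Klrk1, which encodes NKG2D, differed by 1.52 (SE 0.32) and 1.42 (SE 0.27). The call of Klrb1b ended without P3 replicate 3 and that of Klrk1 with the 6 arrays fitted alone. Of 9 other NK cell markers 0 were called by limma and 8 had a mean of low signal in DC. Ly49 genes are near-identical copies of each other, so a probe set may read more than 1 of them.

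Among the largest differences were genes from several families. Gpr141b, an orphan G protein-coupled receptor gene, stood at 3.50, 3.45 and 4.79 in P3 and at 7.83, 7.14 and 7.23 in DC. The C-type lectin genes Cd209e and Clec4g differed by 3.00 (SE 0.60) and 2.95 (SE 0.39). Both were highest among P3 arrays in replicate 3, at 7.69 and 6.45, against 4.96 and 6.19 for Cd209e and 4.23 and 4.22 for Clec4g in the other 2. Cd7, Gpr171 and Cox6b2 differed by 2.80, 2.79 and 2.77, and the unnamed gene model Gm11545 by 3.32. Apod, which encodes apolipoprotein D, stood at 6.79, 5.75 and 9.63 in P3 and at 10.08, 10.79 and 10.65 in DC, and its call ended without P3 replicate 1 or 2 or DC replicate 2. With the 6 arrays fitted alone the calls of Cd209e, Clec4g, Cd7, Gpr171, Cox6b2, Gm11545 and Apod ended, and that of Cd209e ended without P3 replicate 1 too.

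Smaller groups of genes were also higher in DC. Aldh1a2, which makes retinoic acid from retinal, stood at 4.11, 5.22 and 3.94 in P3 and at 6.64, 4.64 and 6.30 in DC, so the groups overlapped, and the call ended without any 1 of 4 arrays. Itgb7, an integrin chain of lymphocytes and DC, stood at 6.01, 6.64 and 6.34 in P3 and at 7.97, 7.89 and 7.99 in DC. Slc27a3, an acyl-CoA synthetase of fatty acid handling, differed by 1.68 (SE 0.26), the decoy receptor gene Il1r2 by 1.30 (SE 0.24) and Timd4, a receptor for phosphatidylserine on dying cells, by 1.88 (SE 0.38). Flt1, a VEGF receptor gene that myeloid cells also express, stood at 6.53, 6.05 and 7.94 in P3 and at 8.63, 8.70 and 8.63 in DC. Of 25 cell cycle genes 2 were higher, Cdk1 (0.85, SE 0.22) and Cdc20 (0.82, SE 0.22), and 21 had the higher mean in DC, with a list median of 0.49. The calls of Slc27a3, Il1r2, Timd4, Flt1, Pecam1, Aldh1a2, Cdk1 and Cdc20 ended with the 6 arrays fitted alone. Those of Pecam1, Cdk1 and Cdc20 ended without any 1 of at least 4 of the arrays as well.

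Of the macrophage core list a larger share was called than of any other of the 32 lists. Of its 32 measured genes 13 were lower and 0 higher, 31 had the lower mean in DC, and the list median was -0.80. Mertk, the receptor for dying cells, stood at 7.26, 6.70 and 6.63 in P3 and at 4.20, 3.54 and 3.79 in DC, where 2 of 3 arrays had low signal. Tlr7, a sensor of single-stranded RNA, stood at 8.54, 7.41 and 8.45 in P3 and at 5.52, 4.95 and 4.5 in DC. C5ar1, the receptor for the complement fragment C5a, stood at 10.75, 10.72 and 10.85 in P3 and at 7.87, 7.26 and 8.74 in DC. Csf1r, the growth factor receptor of monocytes and macrophages, was high in both populations and 1.02 lower in DC (SE 0.19). Lgmn, a lysosomal endopeptidase, was 1.90 lower (SE 0.22) and Abca1, a cholesterol exporter, 1.27 lower (SE 0.25). Abca1 is the one of these whose call ended with the 6 arrays fitted alone.

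Genes of resident dermal macrophages gave 8 lower, 1 higher (Timd4) and 15 not called among 24, with a median of -0.95. Cbr2, a carbonyl reductase, stood at 9.67, 8.99 and 9.89 in P3 and at 6.62, 5.41 and 7.35 in DC. F13a1, the coagulation factor XIII A chain, stood at 10.42, 9.66 and 9.90 in P3 and 7.69, 7.61 and 7.77 in DC. Igf1, insulin-like growth factor 1, stood at 10.31, 10.18 and 10.40 in P3 and 7.55, 7.30 and 8.33 in DC. The groups did not overlap for any of these 3 genes. Stab1, a scavenger receptor, differed by -2.01 (SE 0.36) and the chemokine gene Ccl24 by -2.12 (SE 0.33). The mannose receptor gene Mrc1 and the haemoglobin scavenger gene Cd163, often used as macrophage markers and chosen here after their values were seen, differed by -0.62 (95% interval -1.26 to 0.03) and 0.02 (-0.68 to 0.72). The calls of Cbr2 and Stab1 ended with the 6 arrays fitted alone.

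Ms4a7, a membrane gene typical of macrophages, gave the largest difference of all: 8.86, 8.59 and 9.53 in P3 and 3.79, 4.05 and 5.13 in DC. Its family is not uniform, since 2 of 10 measured members were lower (Ms4a7 and Ms4a6b, -2.42, SE 0.33) and the family's median was 0.02. Aoah, which deacylates bacterial lipopolysaccharide, stood at 8.03, 8.07 and 7.91 in P3 and at 4.23, 4.18 and 5.29 in DC. Cd93 and Siglec1 (CD169) differed by -2.83 (SE 0.35) and -2.77 (SE 0.37). Mgst1, a microsomal glutathione transferase gene, differed by -2.94 (SE 0.51), but DC replicate 3 stood at 6.22 against 3.77 and 3.68 in the others, and the call ended with the 6 arrays fitted alone.

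Genes of complement and of the uptake of dying cells were among the lower ones. Of 17 complement genes 5 were lower and 0 higher. C1qa stood at 11.06, 10.91 and 11.26 in P3 and at 8.44, 7.92 and 8.98 in DC, and C1qb and C1qc, the other chains of C1q, differed by -2.01 (SE 0.45) and -1.86 (SE 0.42). C3ar1 differed by -1.19 (SE 0.31). Of 26 receptors and bridging genes of efferocytosis and scavenging, 6 were lower and 1 higher (Timd4). Msr1, scavenger receptor A, stood at 8.15, 9.04 and 9.07 in P3 and at 6.04, 6.04 and 5.99 in DC, and the receptor gene Axl differed by -2.26 (SE 0.37). The call of C3ar1 ended without any 1 of the 6 arrays, that of C1qc without P3 replicate 1 or DC replicate 1 or 2, and that of C1qb without DC replicate 2.

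Some sensors of microbes and tissue damage were lower in DC as well. Of 22 Toll-like receptors and nucleic acid sensors 5 were lower and 0 higher, and 21 had the lower mean in DC. Beside Tlr7 these were Tlr2 (-1.06, SE 0.20), Tlr4 (-2.11, SE 0.40), Tlr13 (-2.23, SE 0.47) and Unc93b1, the chaperone of endosomal Toll-like receptors (-0.68, SE 0.17). Nlrp3, an inflammasome sensor, was 1 of 15 inflammasome genes called, at 10.46, 10.53 and 10.40 in P3 and 9.58, 9.13 and 9.44 in DC. Of 23 C-type lectin receptors 4 were lower and 0 higher, with Clec4d, which binds mycobacterial glycolipid, at 9.13, 8.94 and 8.83 in P3 and 6.82, 7.14 and 6.86 in DC. Clec4e, Clec5a and Clec12a differed by -1.06, -1.59 and -1.40. The calls of Clec4e and Unc93b1 ended without any 1 of the 6 arrays, that of Clec5a without any 1 of 3, and that of Tlr13 without DC replicate 3, which stood at 3.46 against 6.60 and 5.73. With the 6 arrays fitted alone those of Tlr4, Tlr13, Unc93b1, Clec4e, Clec5a and Clec12a ended.

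Secreted mediators differed by kind. Il10, a cytokine that restrains inflammation, stood at 10.52, 10.87 and 10.78 in P3 and at 7.75, 8.20 and 8.96 in DC. Il1a, interleukin-1 alpha, stood at 9.44, 10.16 and 10.13 in P3 and at 7.87, 7.55 and 8.10 in DC. Il1b, chosen after its values were seen, gave 11.03, 11.29 and 11.15 in P3 and 11.24, 11.25 and 11.14 in DC, a difference of 0.05 (95% interval -0.58 to 0.69). Of 29 cytokine genes 7 were lower and 0 higher. Hbegf, an epidermal growth factor family ligand, was 2.59 lower (SE 0.46) and Ifnb1, the gene of interferon beta, 3.27 lower (SE 0.55). Ifnb1 stood at 6.72, 7.82 and 8.33 in P3 and at 3.67, 5.11 and 4.29 in DC, so the groups did not overlap, and its spread within P3 was wide.

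Chemokines gave 7 lower and 1 higher (Ccl22) of 24, with a median of -1.09. Ccl7, which attracts monocytes through CCR2, stood at 11.81, 11.86 and 11.995 in P3 and at 9.25, 9.27 and 10.00 in DC. Pf4, platelet factor 4, was 2.18 lower (SE 0.46) and Cxcl1, which attracts neutrophils, 1.55 lower (SE 0.27). Of 24 receptors for chemokines and chemoattractants 6 were lower and 2 higher (Ccr7 and P2ry10). Ccr1 stood at 7.54, 6.25 and 6.76 in P3 and at 3.94, 4.56 and 4.29 in DC. Cx3cr1, the fractalkine receptor gene of monocytes, differed by -1.77 (SE 0.27). S1pr1, a receptor by which leukocytes leave tissues, differed by -2.33 (SE 0.38), with P3 replicate 3 at 8.25 against 6.46 and 6.32. The calls of Hbegf, Ifnb1, Cxcl1, Cx3cr1 and S1pr1 ended with the 6 arrays fitted alone.

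Lysosomal and lipid genes included many that were lower in DC. Of 27 genes of the lysosome and its proteases 6 were lower and 0 higher. Ctsl, cathepsin L, stood at 9.07, 8.66 and 9.13 in P3 and at 6.57, 6.64 and 7.29 in DC, and Cd63, a lysosomal tetraspanin, at 10.95, 10.71 and 10.68 in P3 and 9.06, 9.29 and 9.02 in DC. Ctsb and Lamp1 had small differences with small errors, -0.84 (SE 0.17) and -0.52 (SE 0.10). Of 22 genes of lipid uptake, storage and efflux 5 were lower and 1 higher (Slc27a3). Apoe, the apolipoprotein that carries cholesterol out of macrophages, stood at 12.57, 12.51 and 12.75 in P3 and at 10.02, 10.30 and 11.00 in DC. Trem2, a lipid-sensing receptor, and Plin2, a lipid droplet coat gene, differed by -1.94 (SE 0.40) and -0.85 (SE 0.21). Of 15 cholesterol synthesis genes and of 15 iron and heme genes 0 were called by limma. Over all genes 1.8% were called, so lists of this size cannot be told apart from that share. The call of Plin2 ended without any 1 of the 6 arrays and that of Trem2 without DC replicate 2, and those of Ctsb, Lamp1, Trem2 and Plin2 ended with the 6 arrays fitted alone.

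Several receptors and regulators completed the lower group. Of 29 receptors for growth factors and cytokines 4 were lower and 2 higher, with Tgfbr1, the type I receptor of TGF-beta, at 8.51, 7.43 and 8.70 in P3 and 6.52, 5.91 and 7.20 in DC. Csf3r, the receptor of granulocyte colony-stimulating factor, was 1.98 lower (SE 0.27). Itga9, an integrin chain, stood at 5.79, 5.88 and 6.50 in P3 and at 4.59, 4.17 and 4.32 in DC. Tfec, a transcription factor restricted largely to macrophages, was the 1 called of 20 monocyte and macrophage transcription factors (-2.68, SE 0.48), while Spi1, the gene of PU.1 and chosen after its values were seen, differed by 0.06 (95% interval -0.18 to 0.30). Of 17 classical monocyte genes 1 was lower (Clec4e). Fcgr1 was the 1 called of 8 Fc receptor genes. Among 18 genes of glycolysis and hypoxia Hk3, a hexokinase of myeloid cells, was lower (-1.15, SE 0.23), and Fzd7, a Wnt receptor, was higher (1.03, SE 0.26) among 21 genes of Notch, Wnt and TGF-beta signalling. Of 19 immediate early and dissociation stress genes 0 were called by limma (1.8% over all genes). In DC 17 of them had the lower mean, with a median difference of -0.21. The calls of Tgfbr1, Tfec, Hk3 and Fzd7 ended with the 6 arrays fitted alone, and that of Fzd7 without any 1 of 4 arrays.

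**Figure D2:**
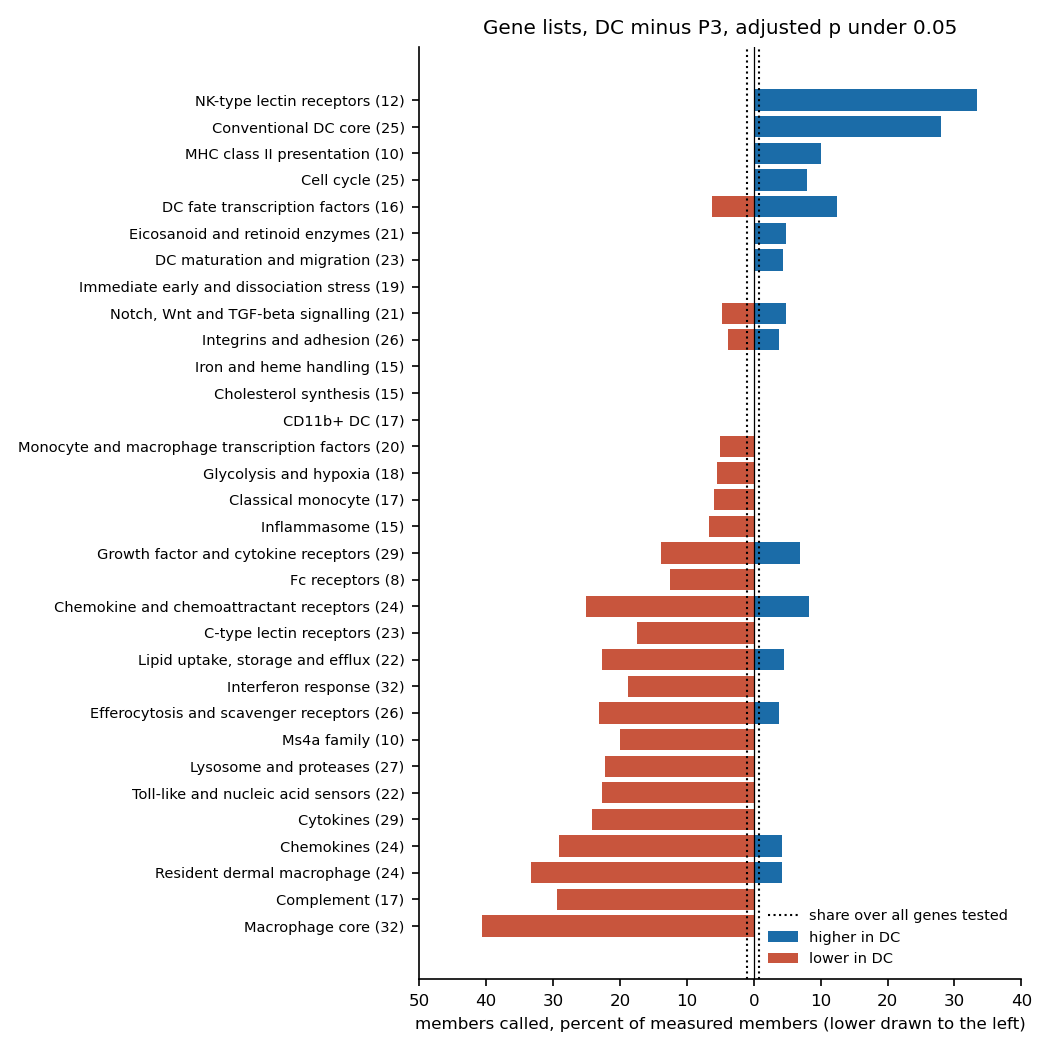
Share of measured members called higher in DC (blue, to the right) or lower (red, to the left) for the 32 gene lists, with the number measured in parentheses; dotted lines mark the shares over all 19937 genes, 0.747% higher and 1.05% lower. NK-type lectin receptors (4 of 12) and conventional DC core genes (7 of 25) have the longest blue bars, and macrophage core genes (13 of 32) the longest red bar.

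Some interferon response genes were lower in DC. Of 32 measured, 6 were lower and 0 higher, 29 had the lower mean in DC, and the list median was -0.43. Oasl2 stood at 6.33, 6.21 and 6.11 in P3 and at 4.81, 3.76 and 4.72 in DC. Oas1a, a sensor of viral RNA that makes oligoadenylate, stood at 6.80, 7.64 and 7.35 in P3 and at 6.02, 6.47 and 5.35 in DC. Rsad2, which encodes viperin, differed by -1.36 (SE 0.29). Rtp4 stood at 6.76, 8.02 and 8.85 in P3 and at 5.52, 5.34 and 5.84 in DC. Ifit1, which binds foreign RNA, stood at 6.60, 6.96 and 6.96 in P3 and at 4.02, 5.87 and 4.17 in DC, and Parp14 was the remaining called member (-0.98, SE 0.26). The groups did not overlap for any of these genes. The calls of Oasl2, Oas1a, Rsad2, Rtp4 and Ifit1 ended with the 6 arrays fitted alone, those of Rsad2 and Rtp4 ended without P3 replicate 3, and that of Ifit1 without any 1 of 5 arrays. The calls of Parp14, Kmo, P2ry10 and Kynu were not run under the alternatives.

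The promoters of called interferon genes are shown because the site that interferon-activated factors bind is a short known motif. These genes were picked as called lower in DC, so their shared direction is not a finding. RefSeq's table (GRCm38.p6) holds 250 bases before the start of 4 of the 6, and capitals mark the core of the interferon-stimulated response element on either strand, taken here as GAAA, any 2 bases (NN) and GAAA.
Ifit1, chr19:34640639-34640888, plus strand: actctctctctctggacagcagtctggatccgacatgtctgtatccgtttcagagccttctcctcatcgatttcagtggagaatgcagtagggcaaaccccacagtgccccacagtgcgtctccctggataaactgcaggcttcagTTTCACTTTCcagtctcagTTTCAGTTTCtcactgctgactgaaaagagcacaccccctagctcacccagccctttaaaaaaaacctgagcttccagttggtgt
Oas1a, chr5:120907526-120907775, minus strand: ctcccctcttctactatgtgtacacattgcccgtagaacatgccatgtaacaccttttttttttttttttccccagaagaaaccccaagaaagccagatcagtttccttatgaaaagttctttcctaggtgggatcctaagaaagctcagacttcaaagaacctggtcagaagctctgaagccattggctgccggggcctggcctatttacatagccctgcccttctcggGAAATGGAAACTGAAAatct
Rsad2, chr12:26456453-26456702, minus strand: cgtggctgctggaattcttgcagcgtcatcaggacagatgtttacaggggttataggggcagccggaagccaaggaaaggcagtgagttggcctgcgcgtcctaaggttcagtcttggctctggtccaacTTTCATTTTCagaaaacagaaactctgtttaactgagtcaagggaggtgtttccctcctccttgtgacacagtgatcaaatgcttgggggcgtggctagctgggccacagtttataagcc
Oasl2, chr5:114896684-114896933, plus strand: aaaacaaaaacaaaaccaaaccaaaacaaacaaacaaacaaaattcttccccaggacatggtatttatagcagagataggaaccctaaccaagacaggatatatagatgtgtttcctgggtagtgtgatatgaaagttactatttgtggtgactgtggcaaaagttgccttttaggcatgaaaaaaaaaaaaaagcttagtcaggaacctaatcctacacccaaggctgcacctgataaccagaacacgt
Ifit1 holds 2 matches on the reverse strand (read as TTTC, NN and TTTC), starting 104 and 85 bases before the start. Oas1a holds 2 overlapping matches, 20 and 14 bases before it, and Rsad2 1 on the reverse strand at 120. Oasl2, the gene with the smallest adjusted p of the 6 (0.00054), has none in this window. The motif is found in 12 of 24 interferon list promoters (50%) and in 3.4% of 15613 tested genes with a promoter in the table. Among list members that were not called it is found in 9 of 20, so the match does not part called from uncalled members. Of all genes lower in DC 7.55% hold it (12 of 159 with a promoter), and of all genes higher in DC 5.38% (7 of 130). Rtp4 and Parp14 are named only.

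Across the other populations, the genes lower in DC had their highest levels in dermal macrophages. The median level of the 209 lower genes was 6.39 in DC (median of 3 arrays), 7.91 in P3, 8.41 in P5 and 8.52 in P4, the CCR2- macrophages that carry (P5) or lack (P4) MHC class II, and 6.85 in blood monocytes. P5 stood above both P3 and DC for 144 of the 209 and nearer to P3 than to DC for 185. Steady-state P2 was nearer to P3 for 117 and nearer to DC for 92. Blood monocytes were nearer to P3 for 84 and nearer to DC for 125. The 149 genes higher in DC had a median level of 7.47 in DC, 5.73 in P3, 5.71 in P5, 5.06 in P4 and 5.28 in blood monocytes. P5 was nearer to P3 for 137 of them, steady-state P2 for 124 and blood monocytes for 110. These genes were chosen by the P3 and DC arrays, so the levels elsewhere are a description with no test. Single genes differed from the pattern: mean levels of Dpp4 were as high in blood monocytes (7.55, SD 0.36) as in DC (7.55, SD 0.27), those of Adam23 and Cd7 in P5 (6.71, SD 0.65, and 7.23, SD 0.51) lay above P3, and Apod was at 10.18 (SD 0.90) in P5 and 10.06 (SD 0.29) in steady-state P2. Klrd1 stood at 8.625, 7.73 and 8.305 in steady-state P2 and Flt3 at 7.695, 7.546 and 7.725, above every P3 array and below every DC array.

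**Figure D3:**
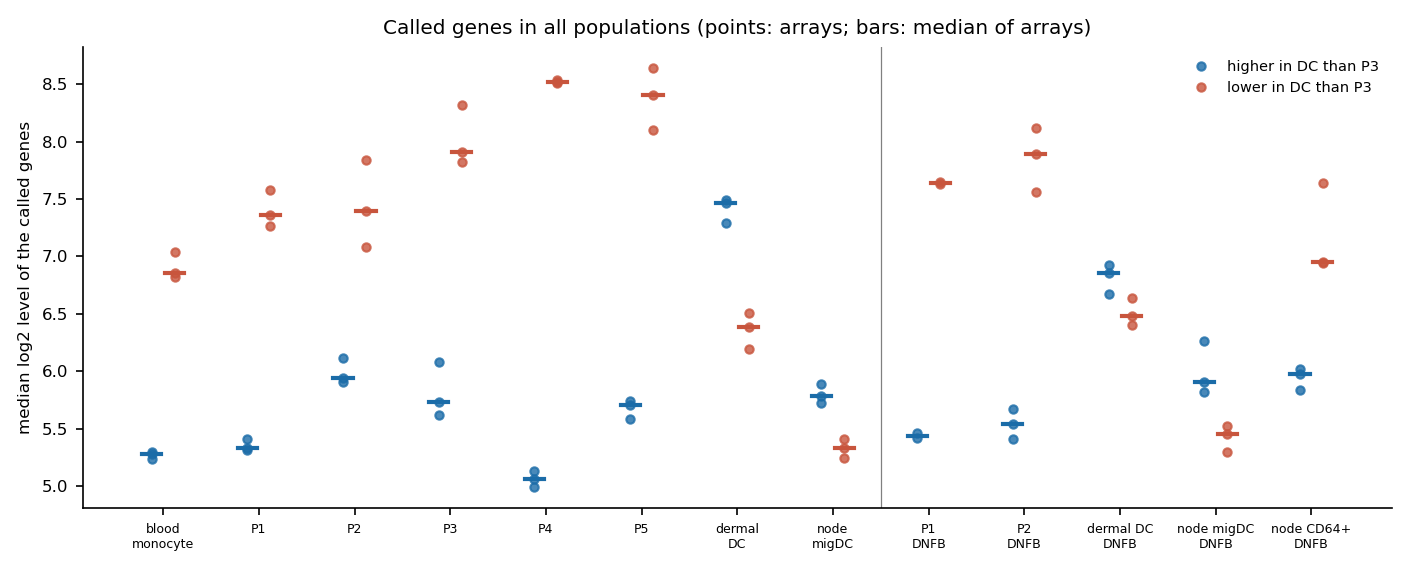
Median log2 level (vertical axis) of the 149 genes called higher (blue) and the 209 called lower (red) in DC than in P3, in each array (points) of the 13 populations, with bars at the median of the arrays; populations right of the line were taken after DNFB. The red bars are highest in P4 and P5 and lowest in node migratory DC, and the blue bar is highest in steady-state dermal DC. Single red points overlap: P3 replicate 3 (8.32) lies above P5 replicate 3 (8.10).

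Comparisons that use none of these 6 arrays were set beside this one. They share with it the estimate of the spread, the choice of probe sets over all arrays and a gate on CD64. Source number 4 is carried by replicate 3 of P3 and DC and by replicate 2 of each DNFB population compared here. Whether these arrays share more than that number is not known from the labels. Mice of the same strain, sex and age had 10 µl of 0.5% DNFB (2,4-dinitrofluorobenzene, a contact sensitiser) applied, and tissue was taken 3 days later. In their dermis, DC of the same gate were compared with P2, whose gate differs from that of P3 in being Ly6Chigh, since no P3 array after DNFB is among the samples. This called 673 genes (3.38%), 357 higher in DC (1.79%) and 316 lower (1.58%). In cutaneous lymph node after DNFB, CD11c+ MHCIIhi migratory DC negative for Ly6C and CD64 were compared with node cells positive for both. The labels of the CD64+ node cells disagree, since their titles name them as other than DC and their descriptions as migratory DC. This called 961 genes (4.82%), 200 higher in DC (1%) and 761 lower (3.82%).

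In inflamed dermis the same genes tended to differ in the same direction. Of the 149 genes higher in steady-state DC, 74 were called higher there too (49.7%) and 0 lower, and 136 had the same sign, with a median difference of 0.88. Of the 209 lower genes 110 were called lower (52.6%) and 1, Cd72, higher, and 196 had the same sign, with a median of -1.03. Klrd1, Flt3, Adam23 and Ccr7 differed by 2.71 (SE 0.40), 2.58 (SE 0.33), 3.71 (SE 0.32) and 2.30 (SE 0.27) in inflamed dermis. Ms4a7, Aoah and Msr1 differed by -4.68 (SE 0.45), -3.63 (SE 0.35) and -4.04 (SE 0.30). By list, 13 of 25 conventional DC core genes and 4 of 10 MHC class II genes were higher in DC there and 0 lower, 7 of 12 NK-type lectin receptors were higher and 1 lower, and 17 of 32 macrophage core genes were lower and 0 higher. Of 32 interferon response genes 1 was lower and 0 higher, which cannot be told apart from the 1.58% lower over all genes. Fibroblast markers also differed there: 4 of 12 were lower in DC, and their mean level was 5.46 to 6.06 in DC and 6.87 to 7.45 in P2. T cell markers gave 1 of 7 higher in DC, with a mean level of 4.90 to 5.23 in DC and 4.33 to 4.71 in P2. Neutrophil markers gave 2 of 11 lower in DC, with a mean level of 4.33 to 4.48 in DC and 4.92 to 5.50 in P2. The part of these markers in the result was not tested.

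In lymph node the 2 sides came apart. Of the 209 lower genes 108 were called lower in node DC (51.7%), 1 (Zmynd15) higher, and the median was -1.02. Of the 149 higher genes 7 were called higher (4.7%), 3 lower (Dnase1l3, Pecam1 and Timd4), and the median was 0.10. The 7 were Adam23, Aldh1a2, Efnb2, Ehf, L1cam, Nup210 and Tnfrsf18. Of the 5 genes that define DC 0 were called in node by limma, and of the 4 that define macrophages 4 were lower in DC. DC genes were high in both node populations: Flt3 was at 10.48 (SD 0.06) in node DC and 9.60 (SD 0.92) in node CD64+ cells, Ccr7 at 11.41 (SD 0.13) and 10.93 (SD 0.81), Dpp4 at 10.36 (SD 0.15) and 9.63 (SD 0.77), and Ccl22 at 12.02 (SD 0.05) and 11.85 (SD 0.25), with n = 3 each. The lectin genes Cd209e and Clec4g and Klra17 were at 3.96, 4.04 and 2.99 in node DC, at or near low signal, against 9.28, 7.91 and 5.37 in steady-state dermal DC. These 2 populations differ in treatment as well as tissue. Dermal DC after DNFB held Cd209e at 7.29, 6.67 and 8.40 and Clec4g at 6.63, 6.29 and 6.64. Although node DC are labelled CD11b+, their Itgam RNA was low, at 4.74 (SD 0.43) in node DC and 8.65 (SD 0.60) in node CD64+ cells. The label names a surface protein, which an RNA level does not measure. Ccr2 was at 4.23 (SD 0.67) and 9.02 (SD 0.60) and Csf1r at 6.19 (SD 0.39) and 10.83 (SD 0.51). Markers of other cells were also called lower in node DC, among them 3 of 12 endothelial (1 higher), 2 of 11 neutrophil and 2 of 9 plasmacytoid DC markers. The neutrophil list mean was 4.00 to 4.27 in node DC and 4.58 to 5.43 in node CD64+ cells, and the part of these markers was not tested. Without node CD64+ replicate 3 the node comparison called 534 genes, and with array weights 3259, of which 58.2% were higher in DC in place of 20.8%.

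Across the 3 comparisons 75 genes were called lower in DC in all (0.376% of the genes tested) and 4 higher (0.0201%). Ms4a7, Aoah, Tlr7, Siglec1, Msr1 and Cbr2 had the largest smallest difference among them. Ms4a7 differed by -4.67, -4.68 and -4.86 in steady-state dermis, inflamed dermis and node. Tlr7 differed by -3.14, -2.98 and -3.88, and Cbr2 by -3.06, -4.07 and -2.99. Mertk and C1qa also passed in all 3. So did Fcgr1, but CD64 was part of the gates in all 3, so this is a check of the labels. Of 32 interferon response genes 6 were lower in DC in steady-state dermis, 1 in inflamed dermis and 14 in node, with 0 higher in each. Over all genes 1.05%, 1.58% and 3.82% were lower, so the count in inflamed dermis cannot be told apart from that share. The list medians were -0.43, -0.43 and -0.98. Among single genes, Oasl2 differed by -0.43 in inflamed dermis (adjusted p = 0.721) and -1.33 in node (adjusted p = 0.00408), and Ifnb1, the interferon gene itself, by -1.16 (adjusted p = 0.425) and -0.51 (adjusted p = 0.761).

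**Figure D4:**
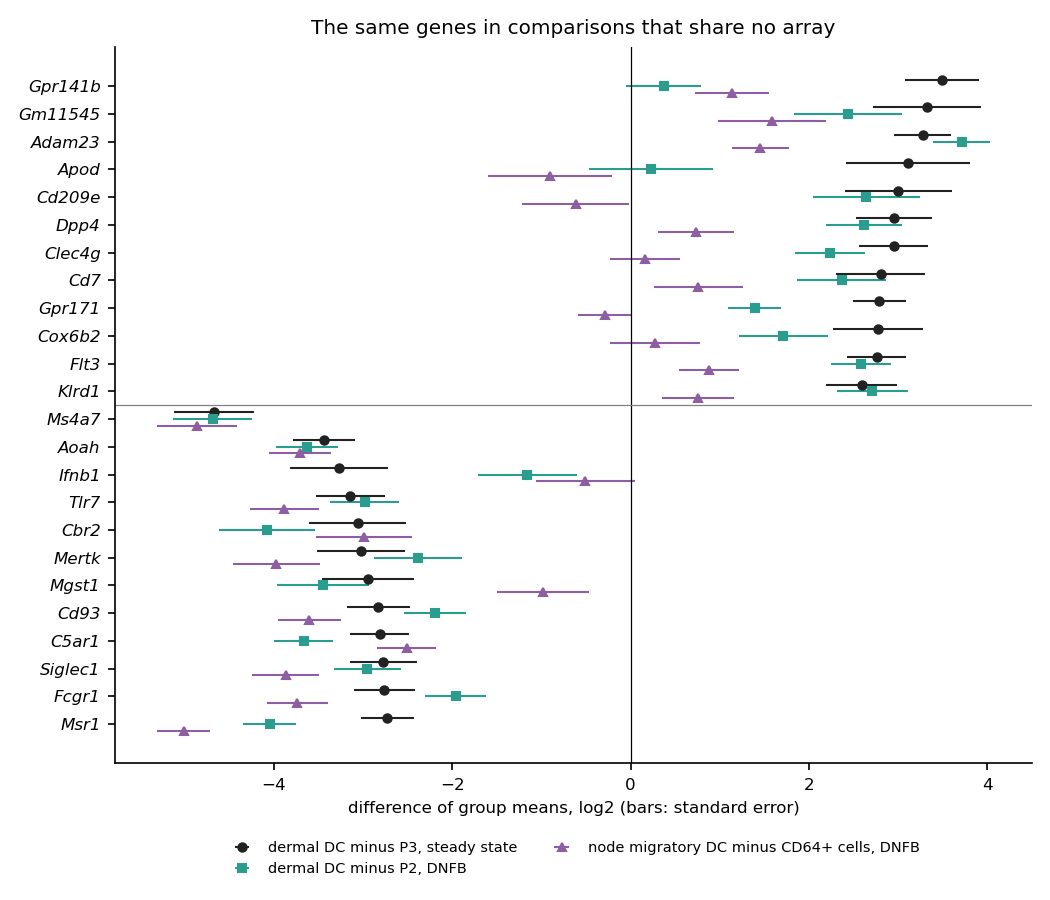
Difference of group means on the log2 scale (points) with its standard error (bars) for the 12 leading genes in each direction, in steady-state dermis (DC minus P3), in dermis after DNFB (DC minus P2) and in lymph node after DNFB (migratory DC minus CD64+ cells). Ms4a7, Aoah and Tlr7 lie close together in all 3, while Gpr141b and Apod lie near 0 in inflamed dermis and all 12 upper genes lie nearer to 0 in node than in steady-state dermis.

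Whether the DC difference itself was unlike at steady state and after DNFB was tested as the difference of the 2 dermal differences, and 50 genes passed (0.251%). The comparator is P3 in one and P2 in the other, so this test cannot tell DNFB from the change of comparator. Steady-state P2 is in the series, but a difference of differences with P2 in both settings was not tested. Kit, the stem cell factor receptor, was low in both populations at steady state, 4.42, 4.31 and 4.35 in P3 and 4.04, 3.98 and 4.41 in DC, and stood at 4.84, 4.14 and 4.59 in P2 and 7.82, 7.20 and 7.61 in DC after DNFB. Its difference of differences was -3.23 (SE 0.33, limma adjusted p = 9.57e-07). Kit also marks mast cells, whose list mean lay at 3.74 to 4.93 in DC after DNFB and 4.07 to 4.22 in steady-state DC. Its part in the result was not tested.

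The other 3 named genes that passed moved in different ways. Ccl17, a chemokine for CCR4+ T cells, was high in 3 of these populations and low in P2 after DNFB: 11.01, 11.26 and 11.10 in P3, 12.38, 12.23 and 12.11 in DC, 6.20, 5.88 and 6.29 in P2 and 10.85, 10.79 and 10.68 in DC after DNFB. Itgax, the gene of CD11c, was likewise lowest in P2, at 8.22, 8.84 and 8.25 in P3, 9.52, 8.99 and 8.81 in DC, 6.26, 5.78 and 6.29 in P2 and 8.84, 8.52 and 9.07 in DC after DNFB. For both genes the steady-state difference was not called (adjusted p = 0.0514 for Ccl17 and 0.0829 for Itgax) and the inflamed one was 4.65 (SE 0.30) and 2.70 (SE 0.20). Gpr141b went the other way, since DC after DNFB stood at 4.26, 3.98 and 4.82, near P2 at 3.73, 4.19 and 4.04. Steady-state P2 held Gpr141b at 4.28, 5.08 and 4.40. Node migratory DC held it at 8.40 (SD 0.55) at steady state and 6.38 (SD 0.49) after DNFB.

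**Figure D5:**
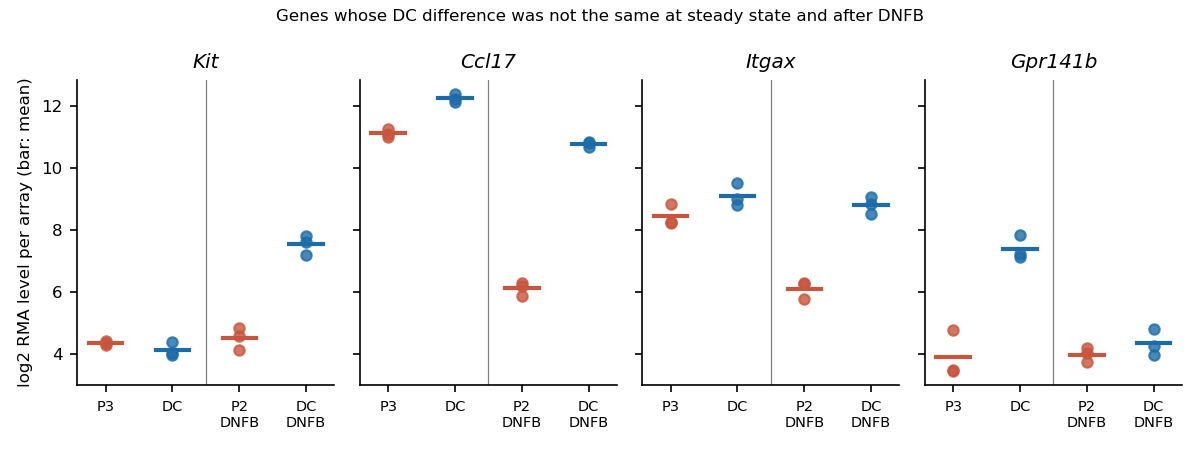
Log2 level of Kit, Ccl17, Itgax and Gpr141b in each array (points, n = 3 per population) with the mean (bar), for P3 and DC at steady state and P2 and DC after DNFB. Kit is raised in DC after DNFB alone among these 4 populations, Ccl17 and Itgax are lowest in P2 after DNFB, and Gpr141b is raised in steady-state DC alone.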

How the data were processed

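Values for 34760 probe sets on 38 arrays of 13 populations were used as deposited, on a log2 scale, from intensities that the authors summarised with RMA (tools named in the submitters' processing notes are RMA and affy, with versions and build not given in the sources used here). Groups come from the titles. Probe sets with 1 gene symbol (21640) were kept, and 11799 with none and 1321 with several were left out, among them those of the Ly6C genes. For 954 genes with several probe sets the one with the highest mean over all arrays was used, which left 19937 genes.

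A mean per group was fitted to all arrays in limma 3.58.1 under R 4.3.3 (statmod 1.5.0), with 25 residual and 3.13 prior degrees of freedom. P-values were adjusted by Benjamini-Hochberg, intervals are at 95%, and the number of arrays limits the precision. A permutation of 3 against 3 arrays cannot give a p under 0.1. In simulated data with these groups and 19937 genes, DC minus P3 found 68 of 100 genes changed 2-fold and 94 of 100 changed 4-fold, 0 in the wrong direction, with 11 unchanged genes called. The simulation gave all groups the same spread for each gene. It cannot show how often the fit errs where the spread differs between groups.

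The populations, the 32 gene lists and 12 marker lists and the rules were chosen with earlier results of these data known. Named genes are up to 12 per direction with the largest difference among called genes whose arrays do not overlap and whose higher mean is at least 6, up to 5 called members per list by adjusted p (2 where none is called), the sort and defining markers, and 6 genes called in all 3 comparisons. Kmo, P2ry10, Parp14, Cpa3, Cd72, Zmynd15, Dnase1l3, Efnb2, Ehf, L1cam, Nup210, Tnfrsf18 and others so marked were chosen after their values were seen. Alternatives were the replicate number as a block, the compared groups alone, both together, the source number as a random block, quantile normalization, centred medians, a filter on low values, other probe set rules, robust variances with a trend, weighted arrays, marker covariates, a test against a difference of 1, and each array left out. The series describes 3 chip batches without tying arrays to them, so no batch term was fitted. Plots used Python 3.11.15 and matplotlib 3.10.9.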

Additional observations from a re-analysis of the deposited data

Results flagged for a closer look

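For 4 named genes the test of the difference itself found that DC minus P3 at steady state differed from DC minus P2 after DNFB (limma, adjusted over 19937 genes). Kit gave -3.23 (adjusted p = 9.57e-07), Ccl17 -3.53 (2.25e-05), Itgax -2.02 (0.000147) and Gpr141b 3.12 (0.00863), as steady-state minus DNFB difference. For each gene the 3 and 3 arrays of the setting with the larger difference did not overlap. The comparator differs as well as the treatment, and the cause was not tested.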

How the results depend on the processing

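DC minus P3 called 358 genes, and 345 with a replicate block, 371 with the source number as a random block, 291 to 446 under the other settings that kept all 38 arrays and the test against 0, and 244 to 315 without 1 array. With only the compared groups it called 101, and with the replicate block and only the compared groups 0 by limma (1905 at an unadjusted p under 0.05, smallest adjusted p = 0.068). Tested against a difference of at least 1, it called 19, DC minus P2 after DNFB 81 of 673, the node comparison 221 of 961 and the difference of differences 9 of 50. Without 1 array these 3 gave 436 (without DC after DNFB replicate 1) to 688, 534 (without node CD64+ replicate 3) to 1032, and 35 to 56. The node comparison called 3259 with array weights, and its share of higher calls was 4.12% with the block and only the compared groups. The covariates gave 61.3% higher in place of 53% for DC minus P2 after DNFB, and 35% in place of 46% for the difference of differences. The replicate block gave 668, 946 and 51. Same-numbered P3 and DC arrays carry the same source number (1, 2 and 4). Their deviations from the group means correlated at -0.01, 0.02 and 0.03. With 3 arrays per group this cannot show whether same-numbered arrays share a pool of mice. Of 123 named genes 93 were called for DC minus P3. Of these 0 were called under all settings by limma, since the replicate block fit of 6 arrays called none. In addition, 145 values of uncalled named genes changed sign. The cause of these shifts was not tested. No detection calls were used, so values under 4.02 bound what can be sized: 14 of the higher and 8 of the lower genes had their lower group there.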
